A study of Mus musculus with 2 samples.

Results

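The subject here is a set of 9 genes for proteins that set how long messenger RNAs last: the 3 genes of the Zfp36 family (Zfp36, Zfp36l1 and Zfp36l2), Zc3h12a, Rc3h1, Rc3h2, Btg1, Btg2 and Tob1. They are 9 of the 19837 genes in the deposited table, and all 9 had a row in it. They were chosen on their measured levels across T cell subsets and times, so those levels and ratios are given as a description, with no test. The study took spleen T cells of female C57BL/6 mice (strain label C57/BL6N) in 3 groups of 3 mice. One group received saline, which the labels put at 0 h, and the others received 6 mg/kg remimazolam, with spleens taken 4 h or 8 h later. Remimazolam is a short-acting benzodiazepine, a drug class that acts on the GABA (A) receptor. Cells of the 3 mice in each group carried the same sample tag, and the 3 tagged pools went through 1 single-cell capture. Each treatment is thus 1 pool, mice of a pool cannot be told apart, and no saline pool was taken at 4 h or 8 h.

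The proteins act at different points of one process. ZFP36, ZFP36L1 and ZFP36L2 bind AU-rich elements in the 3′ untranslated region (UTR) of cytokine and cell cycle transcripts through a pair of CCCH zinc fingers, and bring in the CCR4-NOT complex, which shortens the poly(A) tail. Regnase-1, from Zc3h12a, cuts stem-loops in such transcripts, and the roquins, from Rc3h1 and Rc3h2, bind similar stem-loops and also bring in CCR4-NOT. BTG1, BTG2 and TOB1 bind the CCR4-NOT deadenylases and are known as brakes on proliferation. In T cells, ZFP36 and ZFP36L1 restrain activation, Regnase-1 and the roquins hold back effector and helper programmes, and BTG1 and BTG2 are tied to quiescence.

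The zinc fingers of the Zfp36 family are shown first, because Zfp36l1 and Zfp36l2, whose levels are compared between subsets and stimulated cells, code for nearly the same RNA-binding units. Each line is the coding stretch of 1 finger in GENCODE M21 on GRCm38, 60 bases on the minus strand, and capitals mark the codons of the 3 cysteines and the histidine that hold the zinc.
Zfp36 finger 1, chr7:28378158-28378217: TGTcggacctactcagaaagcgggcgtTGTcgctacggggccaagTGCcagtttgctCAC
Zfp36l1 finger 1, chr12:80110189-80110248: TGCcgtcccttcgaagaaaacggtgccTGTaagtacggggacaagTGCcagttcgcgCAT
Zfp36l2 finger 1, chr17:84186668-84186727: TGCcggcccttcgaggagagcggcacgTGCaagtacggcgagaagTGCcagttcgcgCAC
Zfp36 finger 2, chr7:28378044-28378103: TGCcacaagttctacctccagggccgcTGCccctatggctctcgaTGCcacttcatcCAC
Zfp36l1 finger 2, chr12:80110075-80110134: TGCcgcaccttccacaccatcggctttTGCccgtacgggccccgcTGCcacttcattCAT
Zfp36l2 finger 2, chr17:84186554-84186613: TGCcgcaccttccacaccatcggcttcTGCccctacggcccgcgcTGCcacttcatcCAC
In finger 2, Zfp36l1 and Zfp36l2 shared 54 of 60 bases, and all 20 of 20 codons gave the same residue. In finger 1 they shared 49 of 60 bases, with the same residue at 17 of 20 codons. Zfp36 had the same residue as Zfp36l1 at 13 of 20 codons in each finger, and as Zfp36l2 at 14 of 20 in finger 1 and 13 of 20 in finger 2. The same cysteine and histidine spacing was found once in Rc3h1 and once in Rc3h2, and the search found none in Zc3h12a. The search allowed only spacings close to that of the Zfp36 family, so it would miss a CCCH finger with another spacing.

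The family's own transcripts hold the kind of element that the family binds. The heptamer TATTTAT, counted on the sense strand with overlaps allowed, stood 3 times in the 3′ UTR of each Zfp36 family gene. Their windows of 25 bases follow, with the heptamer in capitals, all on the minus strand of GRCm38.
Zfp36, chr7:28376968-28376992: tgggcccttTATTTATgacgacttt
Zfp36, chr7:28376953-28376977: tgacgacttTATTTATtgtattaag
Zfp36, chr7:28376928-28376952: attttatagTATTTATatatattgg
Zfp36l1, chr12:80108424-80108448: atcaaaacgTATTTATtgccaaact
Zfp36l1, chr12:80108383-80108407: ttttgttcaTATTTATcgggatgac
Zfp36l1, chr12:80108169-80108193: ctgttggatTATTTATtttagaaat
Zfp36l2, chr17:84184916-84184940: tatttaactTATTTATtatcttgtg
Zfp36l2, chr17:84184868-84184892: tccatactgTATTTATcgagtatga
Zfp36l2, chr17:84184682-84184706: tgtatgtaaTATTTATttcattaat
Per kilobase of 3′ UTR this came to 3.88 in Zfp36, 1.64 in Zfp36l1 and 1.65 in Zfp36l2, against 0.315 over all genes. Of 19299 genes with a 3′ UTR of at least 100 bases, 27.9% held at least 1 heptamer and 4.02% held 3 or more. Rc3h2 also held 3, in a longer 3′ UTR (5160 bases), Rc3h1 held 2 and Btg2 held 1. Zc3h12a, Btg1 and Tob1 held none, and a match is a description of letters, not a measured site.

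The 9 genes lie on 8 chromosomes, with positions from GENCODE M21 matched by gene symbol. Zfp36 spans chr7:28376784-28380253, Zfp36l1 spans chr12:80107754-80113013 and Zfp36l2 spans chr17:84183931-84187947, all on the minus strand and each with 2 exons in the transcript used. Zc3h12a lies at chr4:125118423-125127840 (minus), Rc3h1 at chr1:160906418-160974978 (plus) and Rc3h2 at chr2:37370069-37422903 (minus). Btg1 lies at chr10:96617006-96622809 (plus), Btg2 at chr1:134075170-134079120 (minus) and Tob1 at chr11:94211454-94215495 (plus).

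After filters, 5267 saline, 5433 4 h and 5423 8 h cells remained. Of these, 96.8%, 95.4% and 96.0% passed a T cell gate on receptor and CD3 gene molecules, where the labels describe the sort as CD45+CD3+CD5+ in one place and as CD45+ in another. The gated T cells held 13814016, 14016988 and 14101197 molecules, with medians of 2532, 2509 and 2515 per cell. Levels are a gene's molecules per 1000000 molecules of the class (CPM), brackets are 95% intervals for counting error only, and 3 molecules correspond to 0.217, 0.214 and 0.213 CPM. Marker lists of other cell types were low in the gated T cells. The neutrophil list of 4 genes summed to 13.3, 1.36 and 2.41 CPM (Retnlg at 0 in the 4 h pool), and the red cell list of 4 to 2.53, 1.14 and 1.28 CPM. The natural killer list of 5 summed to 36.2, 27.6 and 34.8 CPM, the plasma cell list of 4 to 41.0, 41.5 and 44.8 CPM, and the 1 platelet gene in the table to 0.724, 0.785 and 0.851 CPM. The B cell and myeloid lists, which the gate itself limits, summed to 12.55 to 14.9 and to 77.75 to 81.7 CPM (Csf1r at 0 in the 8 h pool). What part these had in the members' levels was not tested.

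Across all T cells, Zfp36l2 was the 1 member of the 9 that stood apart between pools. It measured 946 CPM in the saline pool, 767 CPM in the 4 h pool and 740 CPM in the 8 h pool, from 13074, 10755 and 10437 molecules. The saline pool was highest, and its counting interval (930 to 963 CPM) did not meet those of the 4 h pool (753 to 782) or the 8 h pool (726 to 755). Relative to saline, the 4 h pool stood at 0.811 (0.790 to 0.832) and the 8 h pool at 0.782 (0.762 to 0.8025). The 8 h pool stood at 0.965 (0.939 to 0.991) of the 4 h pool, so most of the difference was already present at 4 h. Both ratios to saline use the same saline pool, and a difference between pools cannot be told apart from a difference between the mice in them.

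Counted against a fold of 1.2, 1 of 9 members was lower at 4 h and none was higher, where 3.14% of 9480 genes with at least 100 molecules were lower and 5.99% were higher. At 8 h the count was again 1 lower and 0 higher, where 3.74% of 9472 genes were lower and 4.68% were higher. Between 8 h and 4 h no member passed the fold, where 5.33% of 9499 genes were lower and 2.96% were higher. In simulated counts, 5.28% of unchanged genes at 4 h and 5.30% at 8 h passed the fold in either direction from counting error alone. Counting error is smaller for genes with more molecules, so the shares over all genes are no matched background. The other 8 members lay between 0.967 and 1.065 of saline at 4 h and between 0.938 and 1.04 at 8 h. The members' median log2 ratio was −0.02 at both times, beside 0.01 at 4 h and −0.00 at 8 h over all genes tested. Among the 363 genes with at least 10000 molecules in T cells of the 2 pools compared, Zfp36l2 had the lowest ratio to saline at 4 h and at 8 h. That rank uses levels on which the members were chosen and the same saline pool, so it is a description only.

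**Figure D1:**
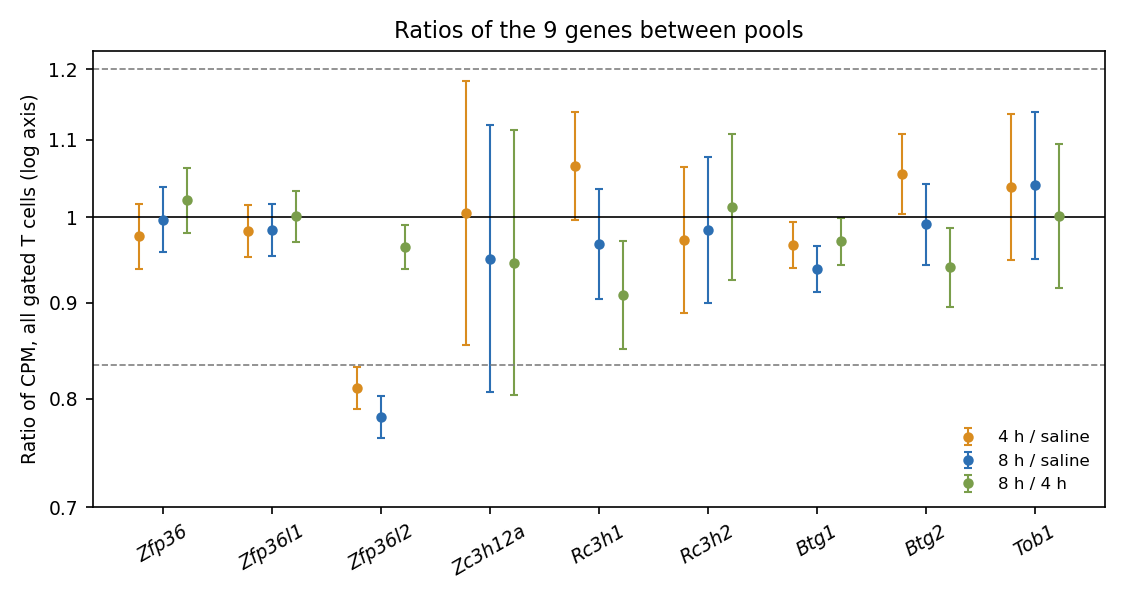
Ratio of CPM between pools for each of the 9 genes in all gated T cells, on a log axis, for 4 h over saline, 8 h over saline and 8 h over 4 h. Bars are 95% counting intervals and dashed lines mark a fold of 1.2 either way. The points of Zfp36l2 against saline, at 0.811 and 0.782, are the pair below the lower dashed line.

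The other members of the Zfp36 family did not share the difference in size. Zfp36, the founding member, known as tristetraprolin, measured 347, 339 and 346 CPM in the saline, 4 h and 8 h pools, and its ratios to saline were 0.977 (0.938 to 1.017) and 0.997 (0.958 to 1.038). Zfp36l1 measured 554, 545 and 545 CPM, with ratios of 0.983 (0.952 to 1.015) and 0.984 (0.953 to 1.016). The intervals of both genes include 1 and leave out a difference of the size seen for Zfp36l2. The 3 genes together summed to 1848, 1651 and 1631 CPM, which put the family total at 0.894 (0.878 to 0.910) of saline in the 4 h pool and 0.883 (0.867 to 0.899) in the 8 h pool.

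Regnase-1 and the roquins stayed within the fold. Zc3h12a, which encodes the endonuclease Regnase-1, measured 21.9, 22.0 and 20.8 CPM from 302, 308 and 293 molecules, and its intervals against saline (0.855 to 1.182 at 4 h, 0.807 to 1.12 at 8 h) both include 1. Rc3h1, the gene of roquin-1, measured 124, 132 and 120 CPM. It was highest at 4 h, at 1.065 (0.997 to 1.138) of saline, and its 8 h level was 0.909 (0.850 to 0.971) of the 4 h level. Rc3h2, its paralog, measured 70.9, 69.0 and 69.9 CPM, with no pair of pools whose interval left out 1.

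The genes of the antiproliferative BTG and TOB proteins also stayed within the fold. Btg1 measured 694, 671 and 651 CPM, and its ratios to saline were 0.967 (0.939 to 0.995) at 4 h and 0.938 (0.912 to 0.966) at 8 h, below 1 by more than counting error but within the fold. Btg2, also a target of p53, measured 223, 235 and 221 CPM, and was highest at 4 h (1.055 of saline, 1.004 to 1.108). Tob1 measured 68.0, 70.6 and 70.8 CPM, with intervals that include 1 at both times. Zfp36 and Btg2 are known as early response genes, which tissue handling can also induce. A list of 18 immediate early and dissociation genes summed to 3053, 3051 and 3169 CPM in the 3 pools, but its genes did not move together. At 4 h Egr1 stood at 0.845 (0.792 to 0.901) of saline, Fos at 0.851 (0.7325 to 0.989) and Hsph1 at 0.858 (0.791 to 0.930), while Jund stood at 1.094 (1.064 to 1.124) and Fosb at 1.68 (1.143 to 2.496). At 8 h Jun stood at 1.276 (1.089 to 1.496). The part of this list in the members' levels was not tested.

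The lower Zfp36l2 level was seen both in the share of cells with a molecule and in the mean of those cells. In saline, 4 h and 8 h cells, 84.4% (83.3 to 85.4), 79.0% (77.8 to 80.1) and 78.0% (76.8 to 79.1) had at least 1 Zfp36l2 molecule (Clopper-Pearson 95% intervals), with 3.04, 2.63 and 2.57 molecules on average in those cells. No cell type that should lack Zfp36l2 was defined here, so no share from free RNA is set beside these values. After thinning every cell to 1000 molecules, which left out 21, 27 and 33 shallower cells, the shares were 57.8%, 50.95% and 50.01%. Cells with 3 or more molecules after thinning made up 9.55% of the saline pool, 6.09% of the 4 h pool and 6.01% of the 8 h pool. Both the share with any molecule and the share with several were lower in the treated pools. These shares cannot separate a small difference in every cell from a larger one in some cells, which was not tested. For Zfp36l1, by comparison, the thinned shares were 38.7%, 39.7% and 38.0%, and for Zfp36 they were 27.2%, 26.7% and 26.6%.

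T cells were then split into 9 subsets by the molecules of lineage genes in each cell. Regulatory cells had Foxp3 and no Cd8 molecule (209, 232 and 241 cells in the saline, 4 h and 8 h pools). The CD4 and CD8 cells were split by genes of memory cells, and gamma delta cells (Trdc), cells with Zbtb16 or Klrb1c (called NKT-like), cells with both co-receptors and cells with neither were kept apart. The naive CD4 gate held 1581, 1483 and 1643 cells, the NKT-like gate only 56, 96 and 68. The CD8 memory gate, on Ccl5, Cxcr3, Il2rb and Nkg7, is loose. Its level of Lef1, a transcription factor gene of naive T cells, was 711 CPM in saline against 829 CPM in the naive CD8 gate, and its cells were deeper (median 3086 against 2480 molecules).

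The Zfp36l2 level was below that of the saline pool in 9 of 9 subsets at 4 h, and in 9 of 9 at 8 h. Over all genes tested, 0.338% at 4 h and 0.348% at 8 h were below 1 in every subset. Genes were counted there from 100 molecules in the 2 pools compared, so these shares are no matched background. The 9 subsets divide the same pools, so their ratios are not separate from the pool ratios above. Naive CD4 cells measured 1013, 825 and 807 CPM in the saline, 4 h and 8 h pools, and naive CD8 cells 862, 703 and 686 CPM. Cells of the CD8 memory gate measured 907, 688 and 680 CPM, and regulatory cells 966, 822 and 828 CPM. In each of these 4 subsets the saline pool was the highest and its counting interval left out both treated values. The ratios to saline ranged from 0.759 in the CD8 memory gate to 0.972 in NKT-like cells at 4 h, and from 0.719 in cells with both co-receptors to 0.864 in gamma delta cells at 8 h. The interval lay below 1 in 7 subsets at each time. NKT-like and gamma delta cells, with the fewest cells, had intervals that included 1 at both times.

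**Figure D2:**
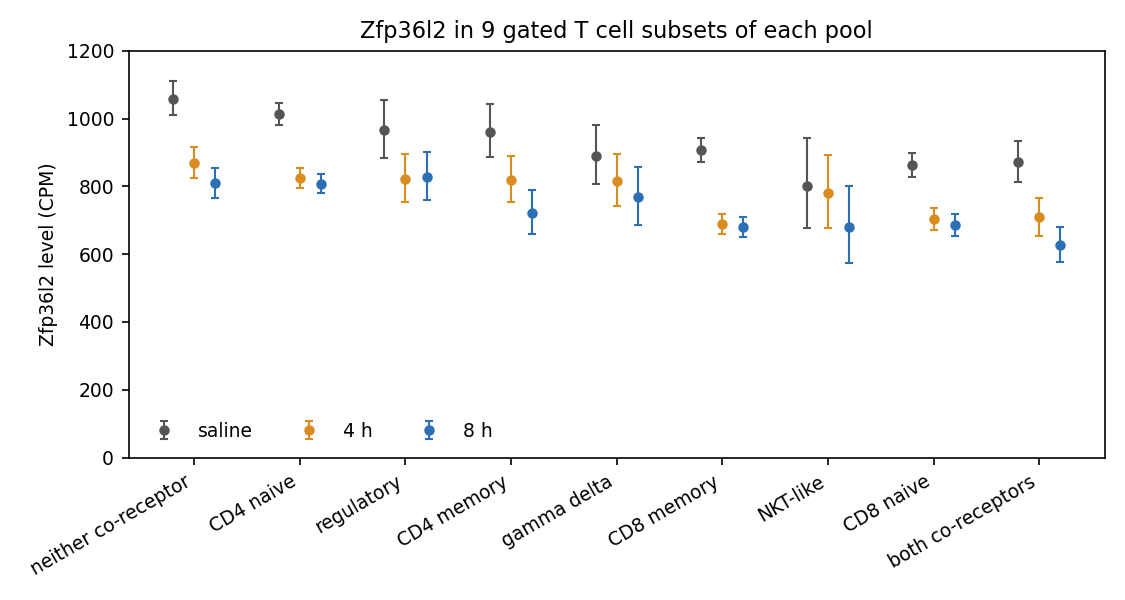
Zfp36l2 level in CPM in each of 9 gated T cell subsets, 1 point per pool with its 95% counting interval, subsets ordered by their mean over the 3 pools. The saline point is the highest in all 9 subsets, from 802 CPM in NKT-like cells to 1059 CPM in cells with neither co-receptor.

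With the mix of subsets held at that of the saline pool, the Zfp36l2 ratios were 0.812 at 4 h and 0.781 at 8 h, close to those without that step. The Btg1 ratio at 8 h was also below 1 in 9 of 9 subsets, from 0.841 to 0.998, with 3 intervals below 1, while at 4 h it was below 1 in 6 of 9. For the 8 members other than Zfp36l2, 15 of 144 subset ratios to saline had an interval below 1 and 6 an interval above 1. Over all genes tested, 3.36% of such ratios had an interval below 1 and 3.54% above 1. Intervals are narrower for genes with more molecules, so these shares are no matched background, and nothing is read from the members' counts.

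In regulatory T cells, Zfp36l1 stood apart from every other subset. Zfp36l1 measured 1186, 1020 and 1107 CPM there, from 624, 650 and 709 molecules, against 587, 564 and 545 CPM in naive CD4 cells. Its lowest regulatory pool was above the highest pool of every other subset, the nearest being 708 CPM in NKT-like cells. The ratio of regulatory to naive CD4 cells was 2.02 (1.85 to 2.21), 1.81 (1.65 to 1.98) and 2.03 (1.86 to 2.21). Zfp36l2, which codes for nearly the same zinc fingers, had no such excess, with ratios of 0.954, 0.997 and 1.025 and intervals that include 1 in each pool.

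Zc3h12a was also highest in regulatory cells on average, at 39.9, 42.4 and 23.4 CPM, but from only 21, 27 and 15 molecules, and its 8 h pool overlapped the next subset. Zfp36 measured 418, 422 and 519 CPM in regulatory cells, with the 8 h pool at 1.24 (1.04 to 1.48) of saline. Rc3h1 was lowest in regulatory cells in the saline pool, at 78.0 CPM, and stood at 97.3 and 130 CPM at 4 h and 8 h, from 41, 62 and 83 molecules. Its 8 h ratio was 1.66 (1.13 to 2.48), whereas in naive CD4 cells it was 0.917 (0.805 to 1.04). Btg1 in regulatory cells measured 797, 601 and 694 CPM, and its 4 h ratio of 0.754 (0.655 to 0.869) was lower than the 0.995 of naive CD4 cells. These time patterns in regulatory cells rest on 1 pool each, and whether they differ from other subsets was not tested.

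**Figure D3:**
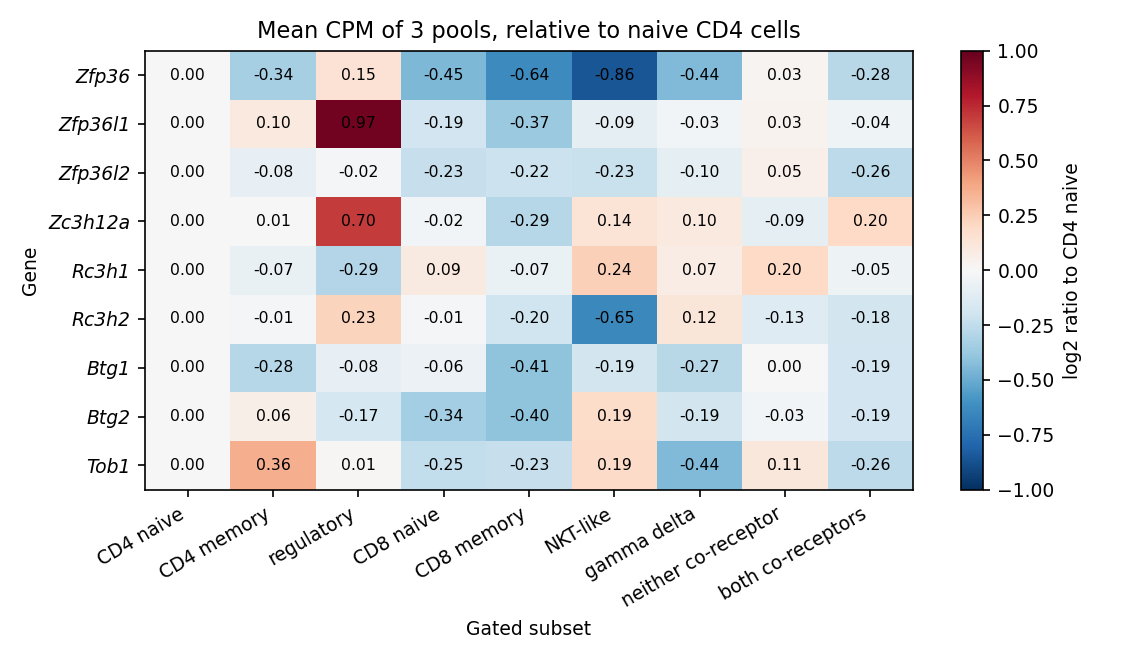
Mean CPM of the 3 pools in each gated subset, as a log2 ratio to naive CD4 cells, with genes in rows and subsets in columns. Red is higher and blue lower than in naive CD4 cells. Zfp36l1 in regulatory cells (1.95 times the naive CD4 level) is the highest cell of the map and Zfp36 in NKT-like cells (0.552 times) the lowest.

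Naive CD8 cells had less of several members than naive CD4 cells in every pool. Zfp36 measured 308, 285 and 309 CPM in naive CD8 cells against 407, 435 and 386 CPM in naive CD4 cells, so the groups of 3 pools did not overlap. The naive CD8 to CD4 ratio was 0.756, 0.656 and 0.799. Btg2 measured 194, 204 and 204 CPM in naive CD8 cells against 252, 266 and 242 CPM in naive CD4 cells, again without overlap. Tob1 stood at 60.6 to 63.5 CPM in naive CD8 cells and at 69.2 to 77.7 CPM in naive CD4 cells. Its ratio in the 4 h pool was 0.918 (0.749 to 1.123), an interval that includes 1. Btg1 differed less, at 0.956 to 0.963 of the naive CD4 level, and each interval includes 1. Zfp36l2 was at 0.851, 0.852 and 0.850 of the naive CD4 level, a ratio that was much the same in all 3 pools. Zfp36l1 was at 0.811, 0.876 and 0.938, and its 8 h interval (0.875 to 1.005) includes 1. Rc3h1 was at 1.041, 1.023 and 1.142, and the intervals of Rc3h1, Rc3h2 and Zc3h12a include 1 in each pool.

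Across the remaining subsets, neighbours in the order of levels mostly overlapped. For Zfp36 the order ran from regulatory cells, cells with neither co-receptor and naive CD4 cells, whose pools overlapped, down to NKT-like cells (180 to 291 CPM). Tob1 was highest in CD4 memory cells, at 86.8, 110 and 88.8 CPM, where the 3 pools overlapped those of NKT-like cells. Btg1 was lowest in the CD8 memory gate, at 583, 543 and 546 CPM, and Rc3h2 lowest in NKT-like cells, at 38.4, 48.7 and 53.1 CPM, below every pool of the other subsets. In NKT-like cells Btg2 measured 209, 382 and 275 CPM (4 h ratio 1.83, 1.25 to 2.73) and Zfp36l1 708, 472 and 415 CPM (8 h ratio 0.586, 0.441 to 0.775), from 38 to 129 molecules in a pool. These NKT-like values come from the subset with the fewest cells.

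A different axis was the recent stimulation of single cells, although this gate too was chosen with earlier results of these data known. Cells with at least 3 molecules over Egr1, Egr2, Egr3, Nr4a1 and Nr4a3, early genes of T cell receptor signalling, made up 5.63% (5.01 to 6.30), 4.30% (3.77 to 4.89) and 5.02% (4.44 to 5.64) of T cells. Zfp36 stood at 814, 887 and 848 CPM in these cells and at 316, 309 and 314 CPM in the others, a ratio of 2.58 (2.38 to 2.79), 2.87 (2.64 to 3.12) and 2.70 (2.49 to 2.92). Zfp36l1 stood at 1123, 1276 and 1063 CPM against 516, 504 and 512 CPM, a ratio of 2.18, 2.53 and 2.08. Zfp36l2 went the other way, at 711, 535 and 608 CPM against 962, 780 and 749 CPM, a ratio of 0.738 (0.680 to 0.8004), 0.685 (0.618 to 0.758) and 0.812 (0.742 to 0.888). So within each pool the cells passing this gate, called stimulated here, had more Zfp36 and Zfp36l1 and less Zfp36l2 than the other T cells. Egr1 and Nr4a1 are also on the list of immediate early and dissociation genes above. The parts of tissue handling and of the subset mix in these ratios were not tested.

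The same order held across 4 bins of stimulation molecules. From cells with 0 to cells with 10 or more, Zfp36 stood at 307 and 1037 CPM in saline, 303 and 1178 CPM at 4 h, and 305 and 1352 CPM at 8 h. Zfp36l2 stood at 965 and 693 CPM in saline, 789 and 513 CPM at 4 h, and 754 and 595 CPM at 8 h. In cells with no stimulation molecule, Zfp36l2 was thus already lower in the treated pools. Btg2 was flat up to the bin of 3 to 9 molecules (213 to 225 CPM there) and stood at 366, 443 and 421 CPM in the last bin, which held 102, 88 and 80 cells.

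**Figure D4:**
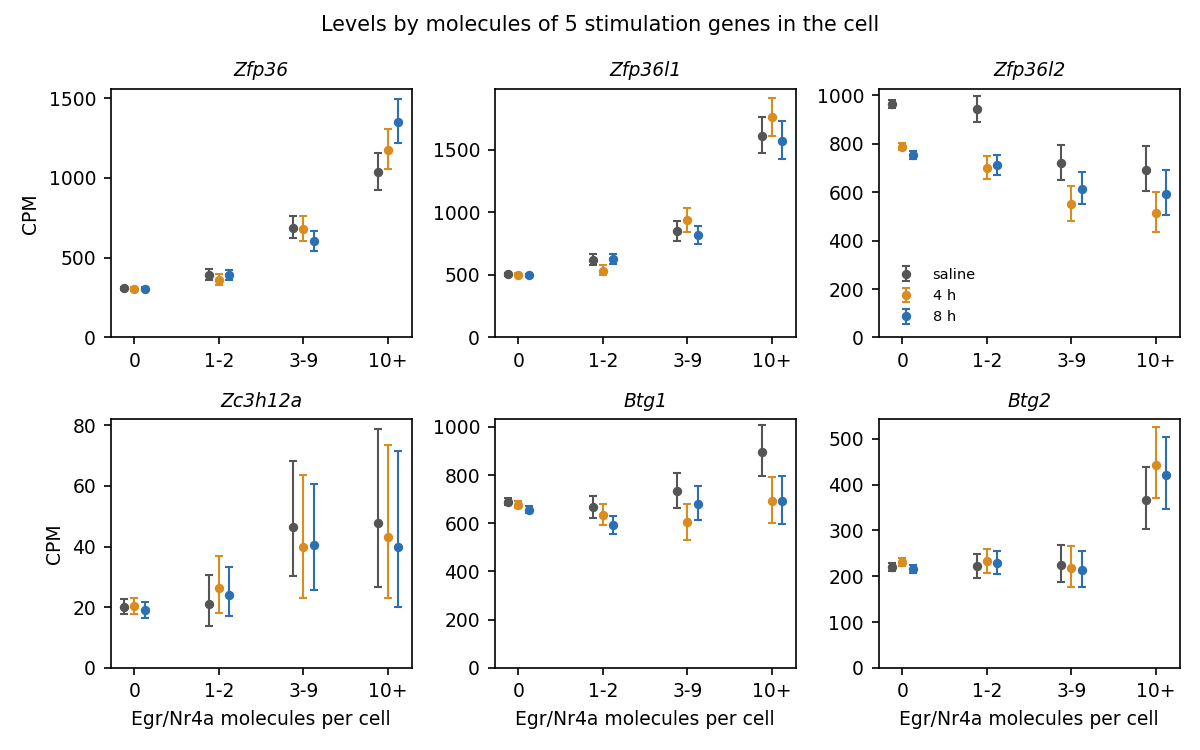
Levels in CPM of 6 of the genes by the number of molecules of 5 stimulation genes in the cell (0, 1 to 2, 3 to 9, 10 or more), 1 point per pool with its 95% counting interval. Zfp36 and Zfp36l1 are highest in the last bin in each pool, and Zfp36l2 is highest in the first.

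Of the remaining members, Zc3h12a was also higher in stimulated cells, at 2.33 (1.63 to 3.24), 1.97 (1.30 to 2.87) and 2.06 (1.40 to 2.96) times the level of other T cells, from 41, 30 and 34 molecules. Btg2 was at 1.26, 1.35 and 1.29 times, each interval above 1. Btg1 was at 1.15, 0.952 and 1.05 times, and only the saline interval left out 1. Rc3h1 and Rc3h2 had intervals that included 1 in each pool, and Tob1 was at 0.850, 0.767 and 0.708 times, with the 8 h interval below 1. Within the stimulated cells Zfp36l2 was at 0.752 (0.661 to 0.855) of saline at 4 h and 0.856 (0.760 to 0.964) at 8 h, and Btg1 at 0.807 (0.716 to 0.909) and 0.864 (0.772 to 0.966).

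The promoters of Zfp36 and Zfp36l1, both higher in stimulated cells, are shown as examples, and a link between motifs and levels was not tested. The 150 bases before the start site come from the RefSeq promoter table (GRCm38.p6, minus strand), with capitals for the motif. The start site is that of RefSeq, and the Zfp36 stretch lies inside the GENCODE gene span given above.
Zfp36, chr7:28379229-28379378, CArG box in capitals: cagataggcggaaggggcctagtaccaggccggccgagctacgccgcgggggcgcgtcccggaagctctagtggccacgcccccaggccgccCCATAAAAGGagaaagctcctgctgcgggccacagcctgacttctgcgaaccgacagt
Zfp36l1, chr12:80113014-80113163, TGANTCA in capitals: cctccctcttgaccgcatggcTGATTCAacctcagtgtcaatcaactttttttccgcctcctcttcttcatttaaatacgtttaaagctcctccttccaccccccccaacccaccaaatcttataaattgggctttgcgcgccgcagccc
Of the 9 members, 8 had an entry in that table and Zfp36l2 had none, so its promoter was not searched. The table spans 250 bases before to 50 after each start, and both strands were searched. The CArG box, bound by serum response factor, was in the Zfp36 promoter and in 1.63% of 32851 promoters. The AP-1 letters TGANTCA were in Zfp36l1 and Rc3h1 and in 7.81% of promoters. The cyclic AMP response element TGACGTCA was in Btg2 (1.79% of promoters), and the FOXO letters GTAAACA in Btg1 (3.65%). Zc3h12a, also higher in stimulated cells, held none of the motifs named so far. Rc3h1, which holds the AP-1 letters, had intervals that included 1 between stimulated and other T cells. The GC box GGGCGG was in 6 members (35.7%). A match here is a description of letters, not a site.

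The genes of the machinery that these proteins work with, and of their targets, came from 8 lists. Over all lists, 3 of 80 genes were lower by the fold and 1 higher at 4 h, beside 3.14% and 5.99% of all genes. At 8 h, 1 of 81 was lower and 3 were higher, beside 3.74% and 4.68%. The median log2 ratios over the lists were 0.01 and 0.02, near those over all genes. None of 14 CCR4-NOT and PAN deadenylase genes passed the fold at 4 h, and 1 was higher at 8 h. That gene was Cnot10, a CCR4-NOT subunit, at 28.1, 30.8 and 35.1 CPM, with an 8 h ratio of 1.25 (1.09 to 1.43). None of 16 genes of decapping and 5′ decay passed at either time (0.884 to 1.15). The helicase gene Ddx6, which links CCR4-NOT to decapping, measured 530, 542 and 520 CPM, and Lsm14a, a partner of DDX6, 161, 162 and 154 CPM. None of 13 exosome genes passed at either time (0.874 to 1.14), with Exosc8 at 82.7, 83.6 and 86.0 CPM and the nuclease gene Exosc10 at 77.5, 73.9 and 78.6 CPM.

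Other proteins that bind AU-rich elements or 3′ UTRs were also within the fold, 0 of 9 passing at either time (0.907 to 1.099). Hnrnpd, also known as AUF1, measured 431, 419 and 413 CPM, and Pum2, which encodes a Pumilio protein, 365, 367 and 372 CPM. Of 6 measured close relatives of the members, 1 was lower at 4 h, which was Btg3 at 0.832 (0.686 to 1.008). Tob2, the paralog of Tob1, measured 104, 115 and 111 CPM, and Malt1, whose protease cleaves Regnase-1 and roquins, measured 104 CPM in each pool.

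Of 7 kinase and phosphatase genes that act on ZFP36 proteins, 1 was lower at 4 h and none passed at 8 h. Dusp1, a phosphatase of p38 MAP kinase and itself an early response gene, measured 17.9, 13.5 and 16.5 CPM, with a 4 h ratio of 0.751 (0.618 to 0.911). Of the target transcripts of the ZFP36 family on the list, 6 could be counted at 4 h and 7 at 8 h, since most inducible cytokines had few molecules in these cells. At 4 h 1 was lower, and at 8 h 1 was lower and 1 higher. The lower one was Il2, the gene of the T cell growth factor, at 0.795 (0.573 to 1.1) and 0.824 (0.596 to 1.135), intervals that include 1. The higher one was Ccl4, a chemokine gene, at 4.49 CPM in saline, 1.93 CPM at 4 h and 7.59 CPM at 8 h. Its 8 h ratio to saline was 1.69 (1.23 to 2.35), while its 4 h level lay below both.

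Of 11 Roquin and Regnase-1 targets, 1 was lower and 1 higher at each time, and the lower one was again Il2. At 4 h the higher one was Ctla4, an inhibitory receptor gene, at 17.2, 20.8 and 19.2 CPM and a ratio of 1.21 (1.01 to 1.44). At 8 h it was Irf4, a transcription factor of activated T cells, at 1.25 (0.940 to 1.66). Btg3, Il2 and Irf4 were named after their values were seen.

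**Figure D5:**
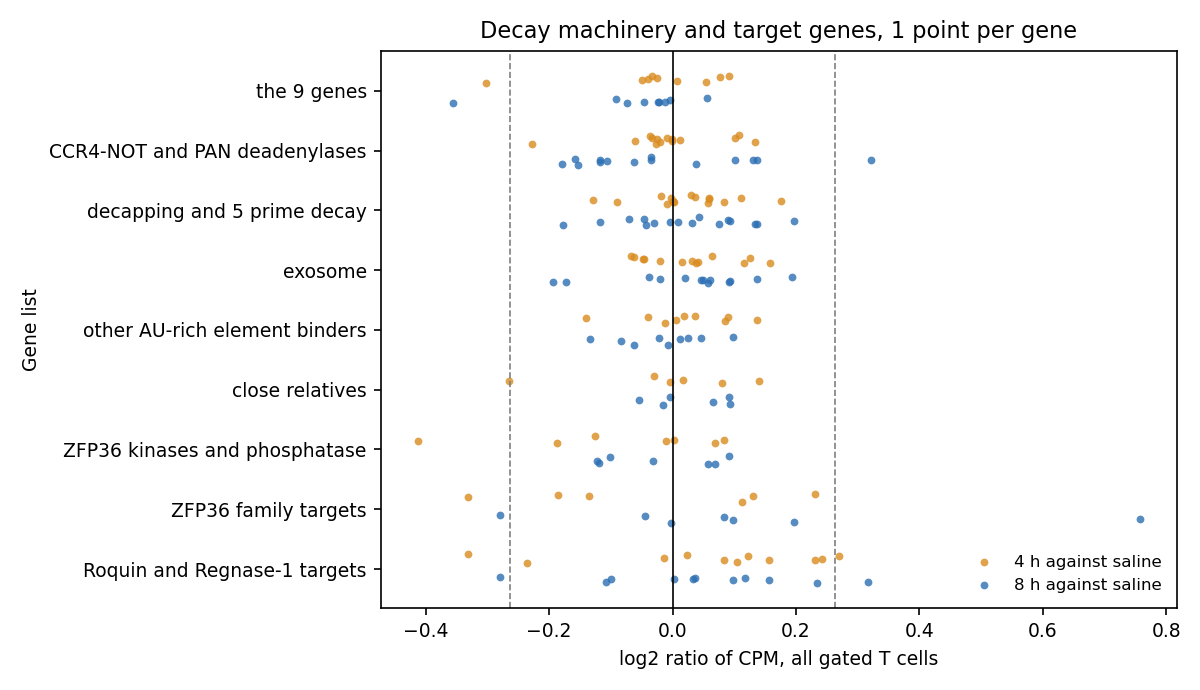
The log2 ratio of CPM to saline for each gene of the set of 9 and of 8 lists of decay machinery and target genes, 1 point per gene, at 4 h and at 8 h. Dashed lines mark a fold of 1.2. Zfp36l2 is the leftmost point of the top row at both times, and Ccl4 at 8 h lies farthest to the right.

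Likeness between genes was measured as Pearson's r of log2(CPM + 1) over 24 points, 8 subsets with at least 100 cells in each of the 3 pools, among 7622 genes. The points share cells, depth and the capture, so the values are a description. The genes most like Zfp36 were Chd3 (0.91), Ly6c1 (0.90) and Ddx5 (0.90). Those most like Zfp36l1 were Sdf4 (0.96), Pim1 (0.95) and Samhd1 (0.94), with regulatory cells as the far points. For Zfp36l2 they were Ddit4 (0.78), Ube2g1 (0.66) and Rbm33 (0.66). Btg1 was most like Nipbl (0.84), Btg2 most like Mlec (0.82), and Tob1 most like Rbm4b (0.78). Zc3h12a was most like Acot2 (0.86), Rc3h1 most like Metap1d (0.77), and Rc3h2 most like Nemp1 (0.69). Among the members themselves, r was 0.70 between Zfp36 and Zfp36l1 and 0.72 between Zfp36l1 and Zc3h12a, but 0.31 between Zfp36l1 and Zfp36l2.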

How the data were processed

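Cells of 3 pools, each 3 mice under 1 sample tag, were compared in 1 capture. The authors' pipeline was BD WTA Multiplex Rhapsody 1.9.1 with GRCm38 and GENCODE M19, per the file headers. No source used here names the aligner. The deposited values are counts: molecules per cell and gene after the authors' error correction of molecular identifiers, and reads per cell and tag. The authors' tag calls gave each cell its treatment, and 1063 multiplets and 60 undetermined cells were left out. Filters required 200 genes or more in a cell and less than 25% mitochondrial molecules. Doublets within a pool were not called, and free RNA was not corrected. All cells come from 1 capture, and its whole-transcriptome and sample tag libraries were joined cell by cell.

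Subsets were gated on molecules, not taken from the authors, so subsets here may differ from those of the study through the rebuilt names alone. T cells had at least 2 molecules over 6 T cell receptor and CD3 genes and fewer than 3 over the B cell and over the myeloid list. Molecules were summed per class and pool. Poisson, conditional-binomial and Clopper-Pearson 95% intervals are exact and cover counting error only. With 1 pool per treatment there is no test and no p-value between treatments. A fold of 1.2 was counted over genes with at least 100 molecules in the 2 pools compared. The ratio and interval script was tested on simulated counts. Named genes were the 9 members, list genes past the fold with an interval that leaves out 1 (otherwise the 2 with most molecules), and the most like genes of each member. Members, lists and gates were chosen with earlier results of these data known. Alternatives covered cell filters, scaling with edgeR 4.0.16, totals, raw molecules, subset mix, the fold and the minimum. Python 3.11.15, numpy 2.4.6, pandas 2.3.3, scipy 1.17.1 and R 4.3.3 were used. All depths are total counts, 13814016 to 14101197 molecules in T cells of a pool.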

Additional observations from a re-analysis of the deposited data

Results flagged for a closer look

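Sample tags 11 and 12 were not assigned to any group, yet took 23.6% and 14.5% of the raw tag reads, where tags 8, 10 and 9 of the 3 groups took 11.8%, 26.4% and 23.7%. Only 2 cells were called for tag 11 and 0 for tag 12, and neither tag enters a value for the 9 genes.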

How the results depend on the processing

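Each ratio of the 9 members was recomputed under 9 alternatives for 3 comparisons, and 243 of 243 values stayed within the counting interval of the reported value. The alternatives reuse largely the same molecules, and the prior of 0.5 hardly moves a member's ratio, so much of this agreement was built in. For Zfp36l2 the recomputed ratios ran from 0.802 to 0.818 at 4 h and from 0.774 to 0.785 at 8 h, all past the fold of 1.2. At a fold of 1.5 the count of members lower by the fold was 0 at 4 h and 0 at 8 h. At a fold of 1.1 it was 1 at each time, and Rc3h1 between 8 h and 4 h became the 1 member past it. Counts over all genes moved with the fold and the minimum: at a fold of 1.5, 22 genes were lower at 4 h and 24 at 8 h, in place of 298 and 354, at a fold of 1.1 956 and 1175, and with no minimum of molecules and a prior of 0.5, 3508 and 3575. With list genes counted from 20 molecules, 5 were lower and 2 higher at 4 h, and 5 higher at 8 h. A gate of at least 2 co-receptor molecules was applied to the naive and memory CD4 and CD8 subsets only. There, 70 of 72 subset ratios to saline stayed within their interval, and those of Zfp36l2 ran from 0.748 to 0.818. The remaining subsets were not recomputed. Shares of cells with a molecule depend on depth: thinned to 1500 molecules, those of Zfp36l2 were 70.8%, 64.1% and 63.6%. No paired analysis was possible because each treatment is 1 pool without replicate numbers. Rare subsets and Zc3h12a are limited by depth, and the spread between mice is unknown.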

Other observations

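The sort also held a few B cells, 107, 132 and 131 in the saline, 4 h and 8 h pools by a gate on a list of B cell genes. Summed over the pools, their Zfp36l2 level was 0.602 (0.548 to 0.660) of that in T cells, while Zfp36 was 1.91 (1.76 to 2.07) times, Zfp36l1 2 (1.88 to 2.13) times and Zc3h12a 3.03 (2.30 to 3.93) times the T cell level. In B cells Zfp36l2 measured 660, 443 and 414 CPM, from 169, 155 and 136 molecules, a ratio to saline of 0.672 (0.537 to 0.840) at 4 h and 0.628 (0.497 to 0.792) at 8 h. Btg1 in B cells measured 898, 692 and 652 CPM, with ratios of 0.771 (0.641 to 0.927) and 0.726 (0.600 to 0.878). In B cells the saline pool was thus the highest for both genes. In the 8, 26 and 13 myeloid cells it was the lowest, with Zfp36l2 at 430 (222 to 751), 1091 (864 to 1360) and 945.5 (675.5 to 1288) CPM from 12, 79 and 40 molecules, and Btg1 at 251, 539 and 520 CPM from 7, 39 and 22 molecules. In these myeloid cells Zfp36 was 5.56 (4.92 to 6.27) times and Zfp36l1 0.346 (0.228 to 0.503) times the T cell level, with the pools summed.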
